A study of Homo sapiens with 8 samples.

Results

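Class II and class IV histone deacetylases were followed through the response of a Burkitt lymphoma cell line and its drug-resistant derivative to an HDAC inhibitor. All 7 genes of these classes (HDAC4, HDAC5, HDAC6, HDAC7, HDAC9, HDAC10 and HDAC11) were chosen by gene symbol from 18143 gene labels whose values could be placed in the deposited expression table. RNA-seq was done on 8 libraries in 4 groups of 2. Raji, a rituximab-sensitive Burkitt lymphoma cell line, and Raji-4RH, the line derived from it that resists rituximab and chemotherapy, were each exposed for 24 h to the DMSO vehicle or to chidamide, a benzamide HDAC inhibitor, at 3 μM. The cells had been kept for 2 to 3 passages and were harvested by flow sorting. Each resistance state is thus represented by 1 cell line. Nothing in the labels says that the libraries of a group came from separate cultures, so that the p-values below measure the spread between these libraries, which may be technical.

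Histone deacetylases remove acetyl groups from lysines of histones and other proteins. Class IIa enzymes (HDAC4, HDAC5, HDAC7 and HDAC9) have weak catalytic activity of their own, bind MEF2 transcription factors, recruit the NCOR/SMRT corepressors with HDAC3, and leave the nucleus when kinases mark them for binding by 14-3-3 proteins. Of class IIb, HDAC6 works in the cytoplasm on tubulin, HSP90 and cortactin, whereas HDAC10 removes acetyl groups from polyamines and is, with HDAC1, HDAC2 and HDAC3, a known target of chidamide. HDAC11 is the only class IV enzyme and removes long fatty acyl groups from lysine, among others from the serine hydroxymethyltransferase SHMT2.

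HDAC9 and HDAC11 were the members with the largest ratios between groups, HDAC7 moved in opposite directions in the 2 lines, and HDAC10 did not pass the test in any comparison. Starts of these 4 genes are shown for that reason. They were taken from RefSeq on GRCh38.p14, which had entries for 6 of the 7 members (not HDAC5), and each window runs from 250 bases before a start to 30 bases from it, 5′ to 3′ on the gene's strand. Capitals mark GC boxes (GGGCGG or, on the other strand, CCGCCC) and a MEF2-like site (CTA and TAG with any 4 bases between them, which reads alike on both strands). Matches on both strands were counted with overlaps allowed, and both motifs were chosen after the sequences had been read.
HDAC9 upstream start, chr7:18086575-18086854, plus strand: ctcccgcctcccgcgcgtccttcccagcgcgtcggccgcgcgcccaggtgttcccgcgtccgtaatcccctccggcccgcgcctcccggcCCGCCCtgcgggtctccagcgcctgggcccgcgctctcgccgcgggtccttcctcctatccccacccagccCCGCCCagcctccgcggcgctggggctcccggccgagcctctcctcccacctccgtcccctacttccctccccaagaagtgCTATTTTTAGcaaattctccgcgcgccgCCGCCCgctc
HDAC9 internal start, chr7:18495499-18495778, plus strand: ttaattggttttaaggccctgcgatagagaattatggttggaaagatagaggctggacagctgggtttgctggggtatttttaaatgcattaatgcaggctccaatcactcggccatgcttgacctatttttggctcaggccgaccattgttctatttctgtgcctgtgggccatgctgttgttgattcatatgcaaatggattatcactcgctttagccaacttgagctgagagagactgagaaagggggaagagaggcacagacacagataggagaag
HDAC11, chr3:13480056-13480335, plus strand: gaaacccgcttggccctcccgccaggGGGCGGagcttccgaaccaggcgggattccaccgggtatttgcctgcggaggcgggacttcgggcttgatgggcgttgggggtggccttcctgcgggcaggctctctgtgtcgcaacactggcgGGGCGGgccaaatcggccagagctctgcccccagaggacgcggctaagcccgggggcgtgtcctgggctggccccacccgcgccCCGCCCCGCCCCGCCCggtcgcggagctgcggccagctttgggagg
HDAC7, chr12:47819874-47820153, minus strand: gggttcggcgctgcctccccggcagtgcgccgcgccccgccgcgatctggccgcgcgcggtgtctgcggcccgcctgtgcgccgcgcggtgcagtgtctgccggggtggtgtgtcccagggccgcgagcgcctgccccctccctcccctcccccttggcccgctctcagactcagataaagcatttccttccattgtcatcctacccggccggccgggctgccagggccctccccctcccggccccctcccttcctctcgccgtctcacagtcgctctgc
HDAC10, chr22:50251236-50251515, minus strand: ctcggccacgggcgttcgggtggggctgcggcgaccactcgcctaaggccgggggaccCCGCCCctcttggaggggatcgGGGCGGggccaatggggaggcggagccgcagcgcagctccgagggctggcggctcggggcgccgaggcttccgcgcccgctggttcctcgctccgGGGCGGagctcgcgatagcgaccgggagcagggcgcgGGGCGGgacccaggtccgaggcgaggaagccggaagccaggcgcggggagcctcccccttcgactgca

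The upstream HDAC9 window held 3 GC boxes, 38 CpG dinucleotides and 1 MEF2-like site, which lies across the start itself. This motif was found in 2.59% (910) of the 35116 windows of the same length searched, and a GC box in 44.1% of them. By contrast, the internal HDAC9 window shown had no match to either motif and 4 CpG dinucleotides, against a median of 13 over all windows. Further internal HDAC9 starts, not shown, had 0 to 5 CpG dinucleotides and no match to either motif. The HDAC11 window held 5 GC boxes, of which 3 overlap just before the start, and 28 CpG dinucleotides. The HDAC7 window had 31 CpG dinucleotides and no GC box, and that of HDAC10 had 38 and 4. The HDAC7 start used, at 47819903, lies inside the span of the gene in GENCODE v29, which begins at 47833132 on the minus strand. A match describes the letters and not a bound site, and a gene-level value does not tell which start was used.

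Expression is given as FPKM, the reads of a gene scaled to its length and to the reads of the library. The libraries held from 13991697 (Raji-4RH chidamide replicate 1) to 21193441 (Raji-4RH DMSO replicate 2) reads counted to genes. In part of the table the values stand some rows below the gene label. Of the 7 members this concerned HDAC11 alone, whose values stood 3 rows lower, and the other 6 were read from their own rows. All 8 B cell markers were present in every library, from 5.76 FPKM (MME) to 575 FPKM (CD79A). The 6 markers of other cells (CD3E and CD3D of T cells, LYZ and CD14 of monocytes, COL1A1 of fibroblasts, EPCAM of epithelium) lay between 0 and 4.13 FPKM, with CD3D and EPCAM at 0 in some libraries. Their summed level was 1.17 in each of the Raji DMSO libraries, 3.84 and 4.27 with chidamide, 1.45 and 1.59 in untreated Raji-4RH and 8.87 and 9.91 in treated Raji-4RH. The summed B cell markers moved the other way with chidamide, from 1149 and 1190 to 1018 and 1030 in Raji and from 790 and 829 to 638 and 671 in Raji-4RH. The part of these marker levels in the results below was not tested. In bulk RNA, fewer cells of a type and less RNA per cell cannot be told apart.

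Differences were tested with limma on log2(FPKM + 1) over the 10710 genes that reached 1 FPKM in 2 or more libraries, and a gene was called at a Benjamini-Hochberg adjusted p under 0.05. Genes well under 1 FPKM have small differences on this scale whatever their ratio. Chidamide moved a large part of the transcriptome: 74.9% of tested genes were called in Raji-4RH and 60.0% in Raji, and 48.8% had effects that differed between the lines. Without drug, 73.6% of genes differed between Raji-4RH and Raji. Against that background, 6 of the 7 members were called with chidamide in Raji-4RH, all higher (43.3% of tested genes were called higher and 31.6% lower), and 6 of 7 in Raji, 5 higher (31.5%) and 1 lower (28.5%). The chidamide effect differed between the lines for 5 of 7. The signed difference, Raji-4RH minus Raji, was positive in each (27.2% of tested genes, against 21.7% negative). Its sign for HDAC9 depended on the scale, and HDAC7 fell in Raji and rose in Raji-4RH. Between the untreated lines 5 of 7 were called, 3 higher (41.2%) and 2 lower (32.4%) in Raji-4RH. All 7 members passed the filter, but HDAC11 did so only through the Raji-4RH chidamide libraries, HDAC9 only through the 4 Raji-4RH libraries and HDAC4 through the Raji libraries and 1 Raji-4RH chidamide library. These members had to differ between groups to be tested as they were, and the counts describe the members and support nothing further. The comparisons share libraries: each DMSO group serves 3 of the 4.

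**Figure D1:**
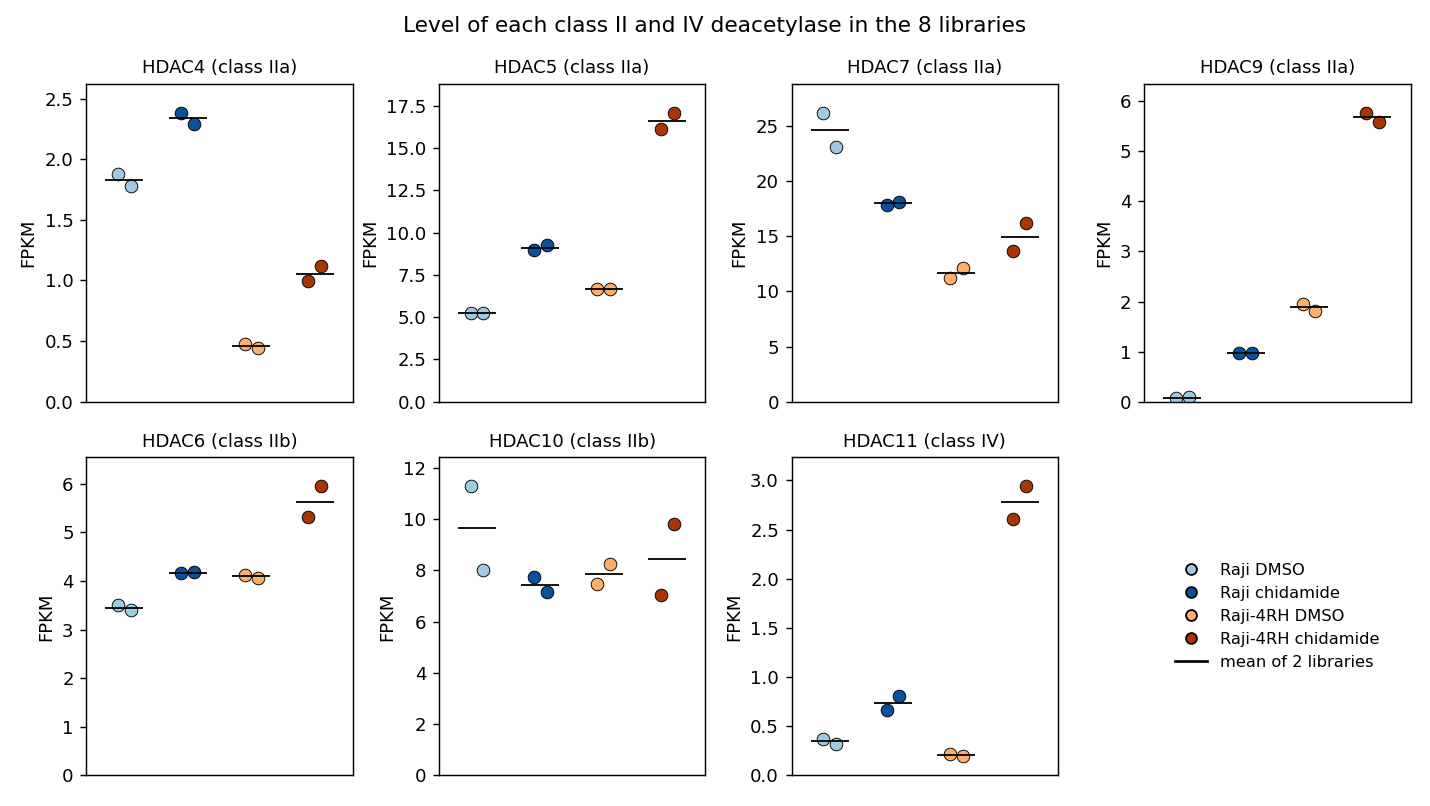
FPKM of each member in the 8 libraries, with 1 panel per gene and its own linear axis from 0. Points are libraries and bars the mean of 2. HDAC9 rose from under 0.1 FPKM in Raji DMSO to over 5 FPKM in Raji-4RH with chidamide, HDAC11 reached over 2 FPKM only in Raji-4RH with chidamide, and the HDAC10 libraries of the same group spread as widely as the groups.

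Of class IIa, HDAC9 had the widest range as a ratio, and HDAC7 the widest in FPKM. HDAC9 (ENSG00000048052) lies on chromosome 7 between 18086949 and 19002416 on the plus strand (GRCh38, GENCODE v29) and encodes an enzyme that represses MEF2 targets. In Raji with DMSO it was close to silent, at 0.0662 and 0.0915 FPKM from 22 and 31 reads. Chidamide brought it to 0.969 and 0.973 FPKM (336 and 341 reads). The Raji-4RH DMSO libraries had 1.96 and 1.81 FPKM, and those with chidamide 5.77 and 5.59 FPKM. The 4 groups did not overlap, and untreated Raji-4RH stood above chidamide-treated Raji. The mean was 12.3-fold higher with chidamide in Raji (library ratios 10.6 to 14.7), 3.02-fold higher in Raji-4RH (2.85 to 3.19) and 23.9-fold higher in untreated Raji-4RH than in untreated Raji (19.8 to 29.6). In limma, HDAC9 rose with chidamide by 0.87 (SE 0.0578, adjusted p = 6.67e-06) in Raji and by 1.21 (SE 0.0578, adjusted p = 4.17e-07) in Raji-4RH, and was higher by 1.42 in untreated Raji-4RH (adjusted p = 1.20e-07). The difference of the 2 drug effects depended on the scale. On log2(FPKM + 1) the effect was larger in Raji-4RH by 0.34 (adjusted p = 0.00914), but with a pseudocount of 0.1 FPKM it was smaller by a difference of -1.04 (adjusted p = 0.00142), and limma voom on the recovered reads gave -2.02 (adjusted p = 0.000109). HDAC9 thus gained more FPKM in Raji-4RH and had the larger ratio in Raji.

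HDAC5 (ENSG00000108840, chromosome 17, 44076746 to 44123702, minus strand), a class IIa enzyme that moves between nucleus and cytoplasm after signalling, rose with chidamide in both lines. Its levels in Raji were 5.26 and 5.27 FPKM with DMSO and 8.99 and 9.25 FPKM with chidamide. Raji-4RH libraries had 6.65 and 6.66 FPKM with DMSO and 16.2 and 17.1 FPKM with chidamide. No pair of groups overlapped, and replicates of a DMSO group differed by less than 0.1 FPKM. The ratio was 1.73 in Raji and 2.50 in Raji-4RH. By limma, the rise was 0.69 (SE 0.0531, adjusted p = 1.47e-05) in Raji and 1.20 (SE 0.0531, adjusted p = 2.95e-07) in Raji-4RH, and the effect was larger in Raji-4RH by 0.51 (adjusted p = 0.00086). This gene kept its direction and its call in all 4 comparisons under every alternative run. Without drug it was 1.27-fold higher in Raji-4RH than in Raji (log2 difference 0.29, adjusted p = 0.00116).

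HDAC4 (ENSG00000068024, chromosome 2, 239048168 to 239401654, minus strand), a MEF2 corepressor, was lower in the resistant line. Raji libraries had 1.88 and 1.78 FPKM with DMSO and 2.38 and 2.29 FPKM with chidamide. Levels in Raji-4RH were 0.479 and 0.441 FPKM with DMSO and 0.994 and 1.12 FPKM with chidamide. Every Raji-4RH library was below every Raji library, and within each line the chidamide libraries were above the DMSO libraries. The untreated level was 3.97-fold higher in Raji than in Raji-4RH (log2 difference -0.95, limma adjusted p = 1.69e-06). Chidamide raised HDAC4 2.30-fold in Raji-4RH (log2 difference 0.49, adjusted p = 9.57e-05) and 1.28-fold in Raji (0.24, adjusted p = 0.00861). The effects differed by 0.25 (adjusted p = 0.0382), a call that was lost when a replicate block was added (adjusted p = 0.0597), with median-centred libraries (adjusted p = 0.0512) and without each of 7 of the 8 libraries (adjusted p 0.0590 to 0.117). The call in Raji was lost without Raji DMSO replicate 2 (adjusted p = 0.0526) or Raji chidamide replicate 1 (adjusted p = 0.0569). Quantile normalization, which forces all libraries to 1 distribution, turned the drug effect on HDAC4 to -0.26 in Raji-4RH (adjusted p = 0.00468) and left -0.0032 in Raji (adjusted p = 0.970). Fewer tested genes lay under 1 FPKM in the Raji-4RH chidamide libraries (4.45% and 4.02%) than in the other 6 libraries (11.4% to 16.3%).

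HDAC7 (ENSG00000061273, chromosome 12, 47782722 to 47833132, minus strand), the class IIa enzyme best known from lymphocytes and a factor that keeps B cell precursors in their lineage, was the most abundant member in 3 of the 4 groups. Its level was 26.2 and 23.1 FPKM in Raji DMSO and 17.9 and 18.1 FPKM in Raji with chidamide. In Raji-4RH it was 11.3 and 12.1 FPKM with DMSO and 13.7 and 16.2 FPKM with chidamide. The groups did not overlap, and the drug brought the lines closer together. HDAC7 fell by 0.43 on the log2 scale in Raji (SE 0.0882, limma adjusted p = 0.00313), where the DMSO level was 1.37-fold higher, and rose by 0.33 in Raji-4RH (SE 0.0882, adjusted p = 0.00917), a ratio of 1.28. The rise in Raji-4RH was not called without its DMSO replicate 1 (0.28, adjusted p = 0.0673). The difference of the effects was 0.75 (95% interval 0.47 to 1.04, adjusted p = 0.00155). Untreated Raji had a 2.11-fold higher level than untreated Raji-4RH (log2 difference -1.01, adjusted p = 1.21e-05). Genes on the other strand, mainly AC004466.1, share 11.2% of the exon bases of HDAC7, and no source used here states that strand was used in counting.

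**Figure D2:**
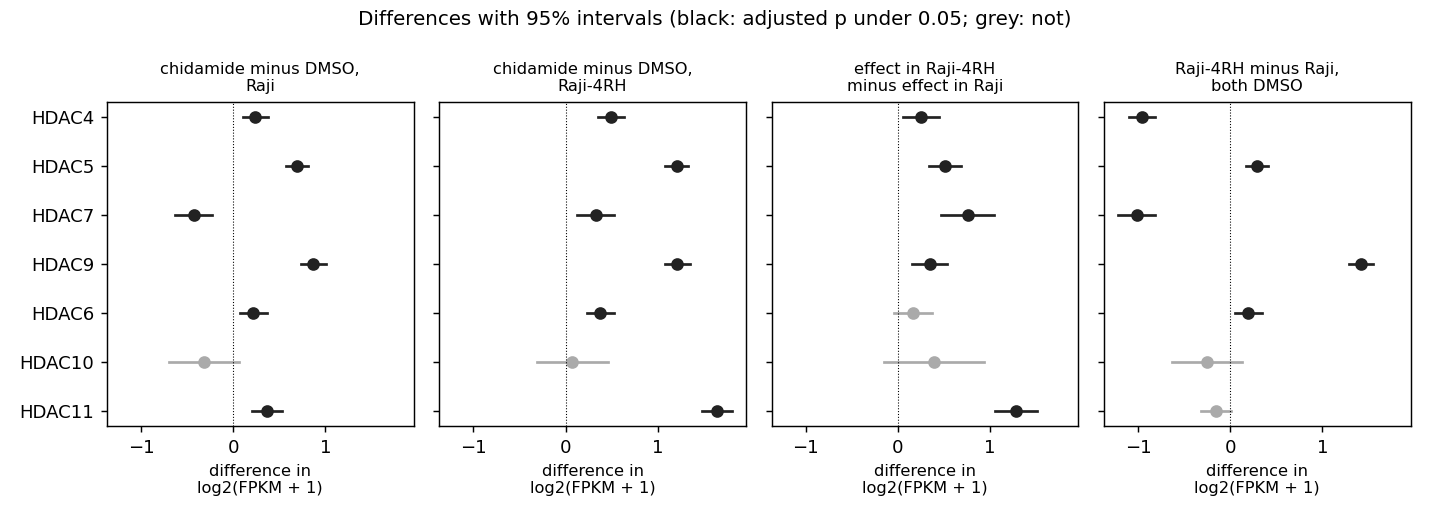
Differences in log2(FPKM + 1) with 95% intervals from limma for each member in the 4 comparisons. Black marks an adjusted p under 0.05 and grey any other. HDAC7 lies at -0.43 in Raji and at 0.33 in Raji-4RH, and the HDAC10 intervals cross 0 in all 4 panels.

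In class IIb, HDAC6 moved little and HDAC10 gave no call. HDAC6 (ENSG00000094631, chromosome X, 48801377 to 48824982, plus strand), the tubulin deacetylase, had 3.51 and 3.39 FPKM in Raji DMSO and 4.16 and 4.18 FPKM in Raji with chidamide. Raji-4RH libraries had 4.13 and 4.07 FPKM with DMSO and 5.31 and 5.95 FPKM with chidamide. Within each line the chidamide libraries were higher, while untreated Raji-4RH was just below treated Raji. The ratio was 1.21 in Raji (log2 difference 0.22, limma adjusted p = 0.0169) and 1.37 in Raji-4RH (0.38, adjusted p = 0.000636). The calls in Raji and between the untreated lines (0.20, adjusted p = 0.0201) were each lost without any 1 of 3 of the 4 libraries compared, with adjusted p up to 0.0865, and under quantile normalization. The drug effects differed by 0.16 between the lines (95% interval -0.04 to 0.36, adjusted p = 0.168).

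HDAC10 (ENSG00000100429, chromosome 22, 50245183 to 50251405, minus strand), the polyamine deacetylase, had 11.3 and 8.02 FPKM in Raji DMSO and 7.74 and 7.15 FPKM in Raji with chidamide. In Raji-4RH it had 7.48 and 8.25 FPKM with DMSO and 7.03 and 9.83 FPKM with chidamide. The Raji groups did not overlap, but the size of their difference rested on the first DMSO library. The Raji-4RH groups overlapped. The log2 difference of HDAC10 was -0.32 in Raji (95% interval -0.70 to 0.06, limma adjusted p = 0.131). In Raji-4RH it was 0.07 (95% interval -0.31 to 0.45, adjusted p = 0.703), and ran from -0.14 to 0.29 with each library left out in turn. Without Raji DMSO replicate 2 the Raji difference was called (-0.54, adjusted p = 0.0337), and without Raji DMSO replicate 1 it was -0.10 (adjusted p = 0.671). The effects differed by 0.39 between the lines (95% interval -0.15 to 0.93, adjusted p = 0.199) and the untreated lines by -0.25 (95% interval -0.63 to 0.13, adjusted p = 0.206). These became calls without Raji-4RH chidamide replicate 1 (0.61, adjusted p = 0.0364) and without Raji DMSO replicate 2 (-0.47, adjusted p = 0.0423), respectively. The HDAC10 values are uncertain for a further reason, as MAPK12 on the same strand covers 55.8% of the exon bases of HDAC10. The FPKM of MAPK12 fell with chidamide from a mean of 18.5 to 12.2 in Raji (log2 difference -0.56, adjusted p = 0.00157) and from 19.9 to 14.1 in Raji-4RH (-0.47, adjusted p = 0.00244). These MAPK12 values were taken from a row below its label, whose own row held 0 FPKM in all 8 libraries. How reads in the shared bases were counted was not tested.

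HDAC11 (ENSG00000163517, chromosome 3, 13479724 to 13506424, plus strand), the class IV enzyme, was low in 3 groups and rose with chidamide in Raji-4RH. Its level was 0.374 and 0.320 FPKM in Raji DMSO (39 and 34 reads) and 0.662 and 0.809 FPKM in Raji with chidamide (72 and 89 reads). Raji-4RH libraries had 0.222 and 0.197 FPKM with DMSO (22 reads in each) and 2.61 and 2.94 FPKM with chidamide (193 and 286 reads). The 4 groups did not overlap, with the lowest level in untreated and the highest in treated Raji-4RH. The mean was 13.3-fold higher with chidamide in Raji-4RH (library ratios 11.8 to 15.0) and 2.12-fold higher in Raji (1.77 to 2.53). In limma, the rise was 1.64 (SE 0.0705, adjusted p = 2.58e-07) in Raji-4RH and 0.36 (SE 0.0705, adjusted p = 0.00228) in Raji, although quantile normalization left -0.0167 in Raji (adjusted p = 0.850). The effect was larger in Raji-4RH by 1.28 (95% interval 1.05 to 1.51, adjusted p = 3.63e-05), and by 2.64 with limma voom on the recovered reads (adjusted p = 0.0002). Between the untreated lines the difference was -0.16 (95% interval -0.32 to 0.01, adjusted p = 0.0763), and it passed the test under 6 alternatives, among them a pseudocount of 0.1 FPKM (-0.53, adjusted p = 0.0105) and the fits without either Raji-4RH chidamide library (adjusted p = 0.0384 and 0.0383).

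The HDAC11 values rest on the row they were taken from. In the row of its own label the values lay between 2.35 and 8.85 FPKM, and there the difference of the drug effects turned to -0.47 (adjusted p = 0.00235) and that of the untreated lines to 0.67 (adjusted p = 1.55e-05). Labels close to HDAC11 in the table were compared for both rows, with genes chosen after their values had been seen. With values from 3 rows lower, STT3B, a subunit of the oligosaccharyltransferase, had 31.1 to 45.7 FPKM, and CWC22, a splicing factor, 10.6 to 17.2 FPKM. In the same rows TRAT1, a T cell receptor adaptor, had 0 to 0.0190 FPKM and RETNLB, an intestinal secreted protein, 0 to 0.0491 FPKM. In the rows of their labels TRAT1 had 23.6 to 43.8 FPKM and STT3B 0 to 0.0096 FPKM. HDAC11-AS1 on the other strand shares 6.25% of the exon bases of HDAC11.

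The make-up of the family shifted between groups. The summed level of the 7 genes was 45.3 ± 4.69 FPKM (SD, n = 2) in Raji DMSO and 42.8 FPKM in both Raji chidamide libraries, 32.9 ± 0.967 FPKM in untreated Raji-4RH and 55.1 ± 5.04 FPKM in treated Raji-4RH. HDAC7 made up 54.5% ± 0.748 of it in Raji DMSO, 42.1% ± 0.438 in Raji with chidamide, 35.5% ± 0.802 in untreated Raji-4RH and 27.0% ± 0.714 in treated Raji-4RH. Over the same groups, the share of HDAC5 was 11.7% ± 1.22, 21.3% ± 0.426, 20.3% ± 0.563 and 30.2% ± 1.55. HDAC9 went from 0.177% ± 0.0578 to 2.27% ± 0.0066 with chidamide in Raji, and from 5.74% ± 0.491 to 10.4% ± 1.18 in Raji-4RH. In the order of levels, HDAC7 led in 3 groups, followed by HDAC10 in both DMSO groups and by HDAC5 in Raji with chidamide. In Raji-4RH with chidamide, HDAC5 (16.6 ± 0.671 FPKM) and HDAC7 (14.9 ± 1.76 FPKM) led, with ranges that overlapped. Within each library HDAC5 was the higher (16.2 against 13.7 FPKM in replicate 1 and 17.1 against 16.2 FPKM in replicate 2). HDAC9 and HDAC6 further down also overlapped, and their order changed between the libraries. All other neighbours in the order had libraries that did not overlap. The lowest gene was HDAC9 in Raji DMSO, HDAC11 in Raji with chidamide and in Raji-4RH DMSO, and HDAC4 in Raji-4RH with chidamide.

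**Figure D3:**
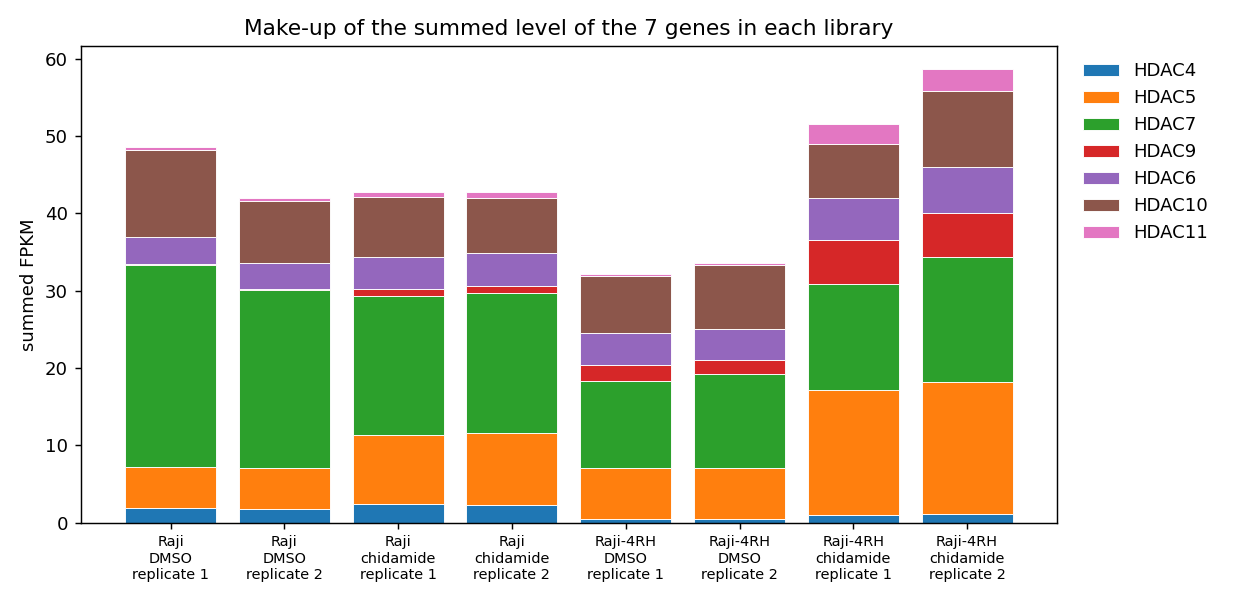
Stacked FPKM of the 7 members in each of the 8 libraries. The green HDAC7 segment takes 54.5% of the sum in Raji DMSO and 27.0% in Raji-4RH with chidamide, where the orange HDAC5 segment takes 30.2%.

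The size of the line-by-drug difference depended on how low values were treated, as the plot of the difference under 5 scalings shows. For HDAC5, HDAC6, HDAC7 and HDAC10, all above 3 FPKM in every library, the 5 scalings gave the same sign. For HDAC11 they ranged from 1.15 to 2.64 with the values of the row used here. HDAC4 had one value below 0, under quantile normalization (-0.26, adjusted p = 0.0384), and HDAC9 had values below 0 with the smaller pseudocount and with voom.

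**Figure D4:**
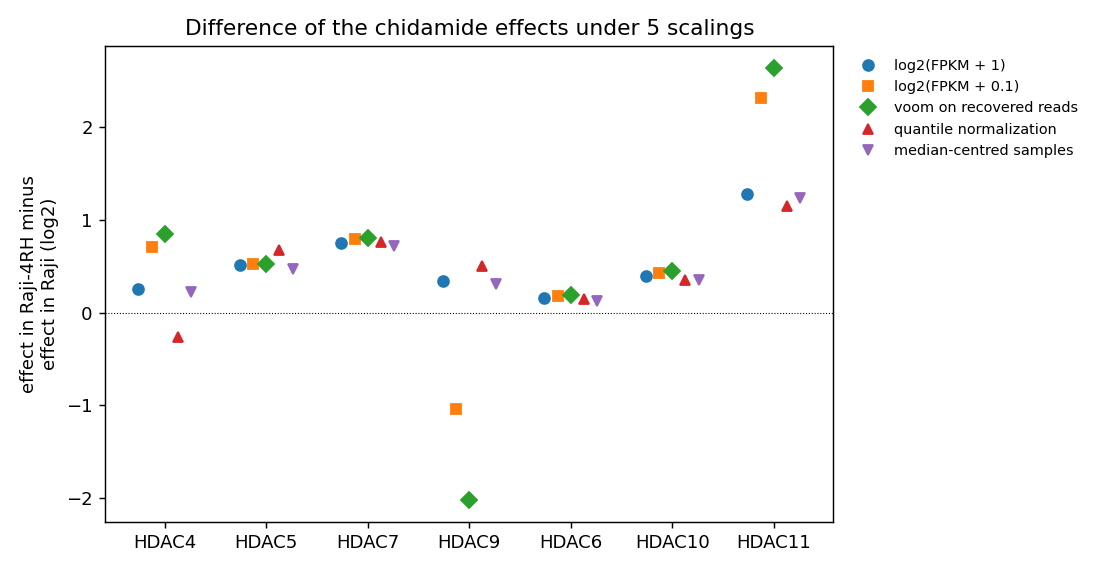
Chidamide effect in Raji-4RH minus that in Raji (log2) for each member under 5 scalings, each marked by its own symbol. The HDAC9 symbols lie on both sides of 0, from -2.02 with voom to 0.50 with quantile normalization, and those of HDAC7 stay between 0.72 and 0.81.

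Genes known to act with the members, and genes related to these, were taken from fixed lists. Of them 79, counting 11 other deacetylases, were placed (43 from rows below their label). Their counts are read against the share of all tested genes called (43.3% higher and 31.6% lower in Raji-4RH, 31.5% and 28.5% in Raji). Each list's median is read against the median of all tested genes (0.09 in Raji-4RH and 0.02 in Raji with chidamide). The counts depend on the scale in part. Of 58 calls on these genes in Raji-4RH, quantile normalization lost 7 and turned the sign of 2, and median centring lost 5. Of 52 in Raji these were 5, 1 and 3. Of 8 tested transcription factors and other proteins bound by class IIa enzymes, 4 rose and 1 fell in Raji-4RH (median 0.10). In Raji 4 rose and 2 fell (median 0.26). MEF2B was not placed. MEF2C, a MEF2 factor of B cells, rose from 4.79 ± 0.222 to 10.2 ± 0.613 FPKM (SD, n = 2) in Raji-4RH. In Raji it rose from 8.03 ± 0.388 to 11.6 ± 0.102 FPKM. The log2 differences were 0.95 in Raji-4RH and 0.48 in Raji (limma adjusted p = 2.44e-06 and 0.000264). MEF2A rose by 0.85 and 0.58. ANKRA2, an ankyrin protein that binds HDAC4 and HDAC5, rose by 0.87 and 0.39, the latter not called under quantile normalization (adjusted p = 0.0957). SRF, the serum response factor, fell by 0.27 in Raji-4RH, which quantile normalization did not call (adjusted p = 0.493), and by 0.35 in Raji. BCL6, the germinal centre repressor, rose by 0.23 in Raji-4RH and fell by 0.34 in Raji. RUNX3 rose by 0.47 in Raji, and had a log2 difference of -0.28 in Raji-4RH (adjusted p = 0.103).

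Among 7 genes of the NCOR/SMRT complex, 4 rose and none of the others passed the test in Raji-4RH (median 0.20). In Raji 3 rose and 1 fell (median 0.03). The shares of all tested genes called were 43.3% higher and 31.6% lower in Raji-4RH, and 31.5% and 28.5% in Raji. TBL1X and TBL1XR1, WD40 subunits of the complex, rose by 0.81 and 0.62 in Raji-4RH and by 0.58 and 0.67 in Raji. NCOR1 had 10.5 to 12.6 FPKM in all libraries, with log2 differences of 0.02 and 0.03 (limma adjusted p = 0.717 and 0.675). CBX5, heterochromatin protein HP1 alpha, fell by 0.53 in Raji (adjusted p = 6.11e-05) and had 0.06 in Raji-4RH. Of the 12 kinases tested that send class IIa enzymes out of the nucleus (CAMK1 and PRKD1 were under the filter), 5 rose and 1 fell in Raji-4RH (median 0.17), and 5 rose and 2 fell in Raji (median 0.14). CAMK1D went from 0.159 to 2.26 FPKM in Raji-4RH and from 0.129 to 0.780 FPKM in Raji (log2 differences 1.49 and 0.66). CAMK4 was at 0.0109 to 0.0345 FPKM in all 4 Raji libraries, at 2.27 and 2.44 in Raji-4RH DMSO, and at 4.38 and 4.61 in Raji-4RH with chidamide. MARK2 fell by 0.38 in Raji-4RH and by 0.26 in Raji, where quantile normalization did not call it. SIK1, a salt-inducible kinase, fell by 0.39 in Raji and had 0.07 in Raji-4RH (adjusted p = 0.528). Of the 14-3-3 proteins with the export receptor XPO1, 4 of 8 fell, 1 rose and 3 did not pass the test in each line (medians -0.29 in Raji-4RH and -0.26 in Raji). YWHAH went from 55.4 to 19.9 FPKM in Raji-4RH and from 61.9 to 35.9 FPKM in Raji (log2 differences -1.43 and -0.77), and XPO1 fell by 0.55 and 0.47. The genes that rose were YWHAZ in Raji-4RH (0.20) and SFN in Raji (0.51), calls that were lost with median-centred libraries (adjusted p = 0.0625) and under quantile normalization (adjusted p = 0.112), respectively.

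All 16 listed substrates and partners of HDAC6 were called in Raji-4RH, 6 higher and 10 lower (median -0.47). In Raji 11 were called, 5 higher and 6 lower (median -0.17). Of all tested genes, 74.9% were called in Raji-4RH and 60.0% in Raji. In Raji-4RH the calls on HSF1 and ATAT1 were lost under quantile normalization (adjusted p = 0.396 and 0.315), and that on UBXN1 with median-centred libraries (adjusted p = 0.113). HSP90AA1, the inducible HSP90, fell from 471 ± 1.22 to 177 ± 7.80 FPKM (SD, n = 2) in Raji-4RH and from 266 ± 20.8 to 134 ± 3.61 FPKM in Raji (log2 differences -1.41 and -0.98, limma adjusted p = 4.51e-07 and 8.55e-06). The alpha tubulins split. TUBA1A went from 22.8 to 89.9 FPKM in Raji-4RH and from 31.4 to 63.2 FPKM in Raji, while TUBA1B went from 318 to 146 and from 333 to 235 FPKM. These tubulin genes are close copies, so that their values are uncertain where reads fit more than 1 of them. CTTN, which encodes cortactin, rose 7.21-fold in Raji-4RH and 1.91-fold in Raji (log2 differences 1.71 and 0.77). BAG3, a cochaperone of HSP70, rose by 0.72 and 1.28, and DNAJB1, an HSP40, fell by 1.13 and 0.35.

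The 10 listed genes of polyamine metabolism, in which HDAC10 acts, were all called in Raji-4RH, 5 higher and 5 lower (median 0.18). In Raji 4 rose and 4 fell (median 0.08). These counts stand against 74.9% of all tested genes called in Raji-4RH and 60.0% in Raji. AZIN1, the antizyme inhibitor, was among the 5 lower (-0.15) and turned to 0.07 under quantile normalization (adjusted p = 0.246). The synthesis enzymes ODC1, AMD1, SRM and SMS all fell in both lines. ODC1, the entry enzyme, went from 208 ± 0.691 to 133 ± 0.0261 FPKM (SD, n = 2) in Raji-4RH and from 288 ± 12.4 to 155 ± 3.95 FPKM in Raji (log2 differences -0.63 and -0.89, limma adjusted p = 1.07e-05 and 4.23e-06). SRM, spermidine synthase, fell by 1.65 and 0.96. On the side of breakdown, SAT1, which acetylates spermidine and spermine for export or oxidation, rose 5.33-fold in Raji-4RH and 2.19-fold in Raji (log2 differences 2.25 and 1.12, adjusted p = 5.74e-08 and 4.21e-06). SMOX, spermine oxidase, went from 0.672 to 4.19 FPKM in Raji-4RH and stayed between 0.0169 and 0.130 FPKM in the 4 Raji libraries (log2 difference 0.09, adjusted p = 0.247). PAOX, which oxidizes acetylated polyamines, rose by 1.06 in Raji-4RH and by 0.34 in Raji, where the sign turned under quantile normalization (-0.0161, adjusted p = 0.880). OAZ1 and OAZ2, the antizymes that inhibit ODC1, rose in both lines, OAZ2 by 1.16 and 0.65. The rise of OAZ1 in Raji (0.18) was not called with median-centred libraries (adjusted p = 0.128). Untreated Raji-4RH had lower SAT1 (6.55 against 48.9 FPKM) and lower SRM (68.6 against 262 FPKM) than untreated Raji.

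The HDAC11 list held 5 genes: SHMT2, CDT1, SHMT1, BRCC3 and ABRAXAS2. Of these, only SHMT2, a substrate, and CDT1 are described here as acting directly with HDAC11. All 5 were called lower in Raji-4RH (median -0.64) and 4 in Raji (median -0.49). Of all tested genes, 43.3% were called higher and 31.6% lower in Raji-4RH, and 31.5% and 28.5% in Raji. Like HDAC11, all 5 had values taken from 3 to 9 rows below their labels, so the counts rest on the rule for rows. CDT1, a replication licensing factor that HDAC11 binds, went from 41.0 to 11.3 FPKM in Raji-4RH and from 26.4 to 15.1 FPKM in Raji (log2 differences -1.77 and -0.76). SHMT2 fell by 0.39 in Raji-4RH, a call lost under quantile normalization (adjusted p = 0.163), and by 0.49 in Raji. BRCC3, a deubiquitinase subunit held with SHMT2 in 1 complex, fell by 0.64 and 0.67. Of 11 deacetylases outside classes II and IV, 5 rose and 2 fell in Raji-4RH (median 0.11), and 4 rose and 3 fell in Raji (median 0.15). Of the 5 rises in Raji-4RH, those of HDAC2, HDAC8 and SIRT2 were not called under quantile normalization (adjusted p = 0.626, 0.863 and 0.471), nor were those of HDAC2 and SIRT2 with median-centred libraries (adjusted p = 0.114 and 0.0903). HDAC1 rose by 0.48 in Raji, and fell by 0.19 in Raji-4RH, where the sign turned under quantile normalization (0.09, adjusted p = 0.109). HDAC3, the catalytic partner of class IIa enzymes, rose by 0.45 in Raji and had 0.11 in Raji-4RH (adjusted p = 0.0867). SIRT4, a mitochondrial sirtuin, rose by 1.59 and 0.74. SIRT1, a nuclear sirtuin, fell by 0.40 in Raji-4RH (adjusted p = 0.000128) and by 0.75 in Raji (adjusted p = 7.18e-06). SIRT7 and SIRT3 fell in Raji by 0.46 and 0.25, and had 0.06 and 0.03 in Raji-4RH (adjusted p = 0.364 and 0.686).

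**Figure D5:**
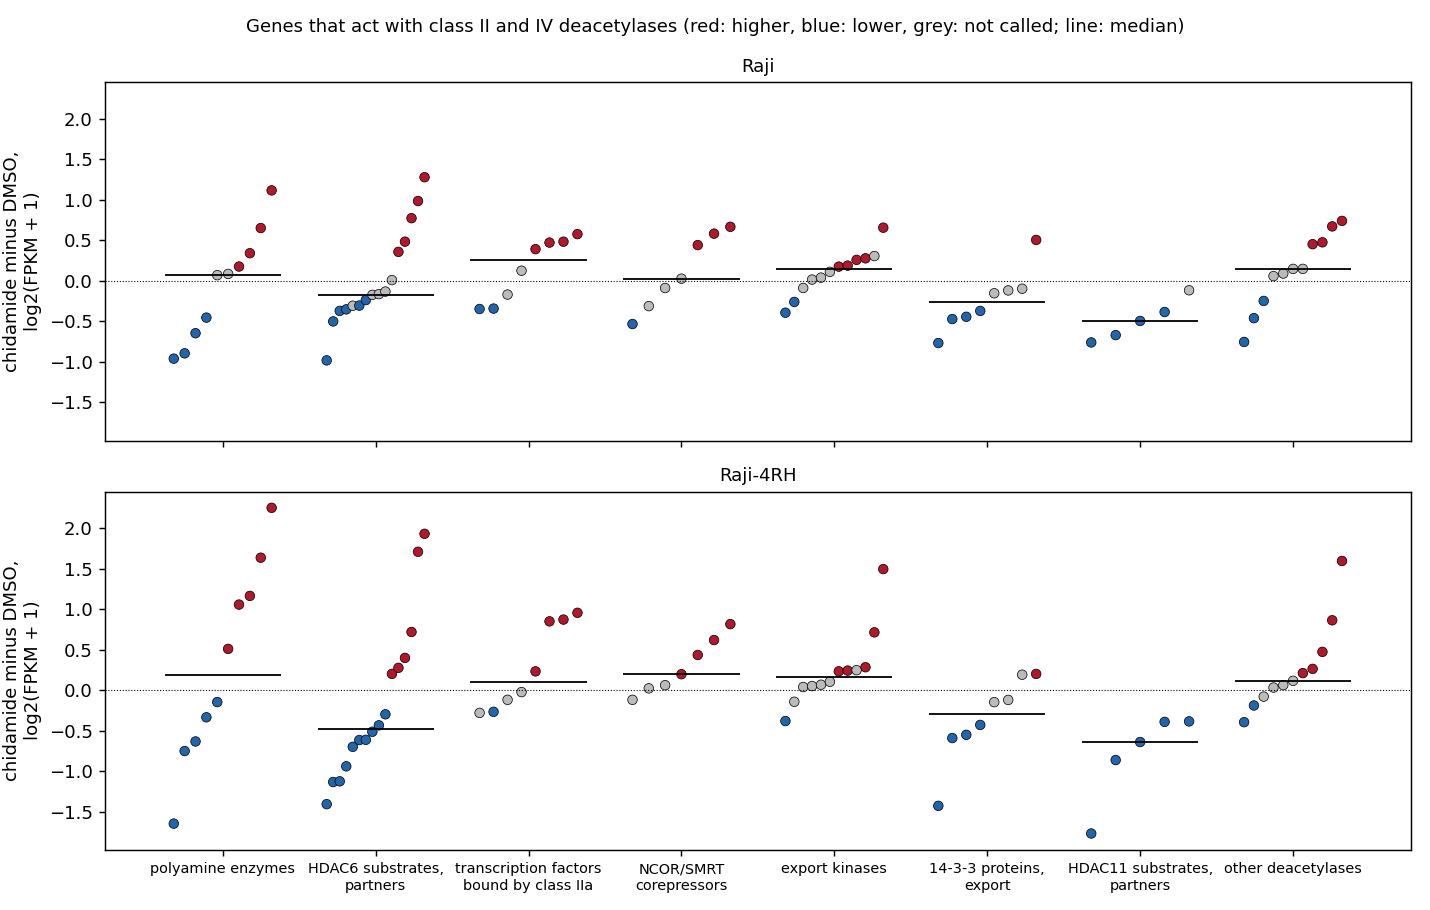
Chidamide effect in log2(FPKM + 1) on each tested gene of the 8 lists, in Raji (top) and Raji-4RH (bottom). Red points were called higher, blue lower, grey neither, and each bar is the list's median. Polyamine genes spread to both sides in both lines. All 5 genes of the HDAC11 list lie below 0, with values taken from rows below their labels.

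Genes whose pattern over the 8 libraries was most like that of a member were ranked by the root mean square difference in log2(FPKM + 1) after centring each gene on its mean. Closest to HDAC9 were CEACAM21 (0.0563), SKIL (0.0920) and LRRC32 (0.143). HDAC11 was closest to ENO2 (0.0723), TBC1D16 (0.0758) and PDZD7 (0.0806), and HDAC5 to CHIT1 (0.0458), ADAMTS6 (0.0551) and MATN1-AS1 (0.0609). For HDAC4 the nearest genes were DENND4A (0.0419), SGMS1 (0.0603) and LRRCC1 (0.0669), and for HDAC7 FAAP20 (0.0754), LZTS2 (0.0964) and ZNF710 (0.101). HDAC6 was nearest to KIAA0319L (0.0361), GRSF1 (0.0382) and PDZD11 (0.0455). The measure is a likeness on the scale of the fit, and members with small differences find near genes easily. Near genes can have other levels and ratios. CHIT1 ran from 0.366 to 2.80 FPKM, ADAMTS6 from 0.0473 to 2.17 FPKM and MATN1-AS1 from 0.0864 to 1.94 FPKM. HDAC5 itself ran from 5.26 to 17.1 FPKM.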

How the data were processed

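RNA was extracted with TRIzol, and libraries made with the NEBNext Ultra kit were sequenced on an Illumina HiSeq X. The submitters' processing notes name HISAT2 2.0.5, SAMtools 1.7, HTSeq 0.9.1 and DESeq2 1.22.2 with GRCh38. The annotation release and the use of strand are not given in the sources used here. FPKM values of every library and a gene length were deposited by the authors in 1 table, from which reads were recovered (100% of non-zero values whole within 0.01). The table has 63967 rows. The library totals equal the sums over the first 63305, and the other 662 repeat the first 662. Values of 11909 of the 18143 labels placed were taken from 1 to 14 rows below the label by a rule from earlier work on these data, and 90.7% to 93.2% of the reads were placed. FPKM was then rescaled to the length of the label.

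limma 3.58.1 in R 4.3.3 was fitted with a mean-variance trend to log2(FPKM + 1) of all 8 libraries with 4 groups, over genes that reached 1 FPKM in 2 or more libraries, with Benjamini-Hochberg adjustment over all 10710. Tested on simulated data for the Raji-4RH comparison with 10710 genes, the script called 197 of 200 changed genes and 19 genes that had not been changed. Members, lists and tests were chosen with earlier results of these data known. All members were named. From each list, the 2 called genes of largest rise and fall per line and direct partners of a member could be named, with further genes added where a scaling alternative ended their call or where few genes of a list fell. Alternatives were other pseudocounts and filters, quantile and median scaling, voom on recovered reads, fits of only the libraries compared, a replicate block, each library left out and the rows as deposited. Gene positions are from GENCODE v29. Same-numbered libraries deviated together with correlations of 0.166 (Raji-4RH), -0.0910 (Raji) and -0.155 (untreated lines), so that the replicate number was not taken to pair them.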

Additional observations from a re-analysis of the deposited data

Results flagged for a closer look

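The effect of chidamide differed between the lines for 5 of the 7 members, against 48.8% of all tested genes (limma, interaction of cell line and drug). HDAC11 passed the filter only through the Raji-4RH chidamide libraries, and HDAC9 only through the Raji-4RH libraries. The count thus describes the members and supports nothing further. The effect in Raji-4RH minus that in Raji was 1.28 for HDAC11, 0.75 for HDAC7, 0.51 for HDAC5, 0.34 for HDAC9 and 0.25 for HDAC4. HDAC7 is the member with called effects of opposite sign (-0.43 in Raji and 0.33 in Raji-4RH). The value of HDAC9 changed sign with the pseudocount, that of HDAC11 changed sign in the rows as deposited, and that of HDAC4 was the closest to the threshold (adjusted p = 0.0382).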

How the results depend on the processing

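Of the counts of members or genes called, 1 moved by over 1.5 times with all libraries kept: 3 members instead of 6 were called in Raji under quantile normalization. Median-centred libraries took the members called for the difference of effects from 5 to 4. With each library left out in turn, the members called ranged from 5 to 6 in Raji-4RH, 4 to 6 in Raji, 4 to 6 for the difference of the effects and 4 to 6 between the untreated lines. Over the members' differences, 410 values under the alternatives kept their call or their lack of one. Sign changes without a call in either fit count among these, as for HDAC10 in Raji-4RH (-0.14 at the lowest with 1 library left out). A further 20 lost the call, 10 gained it and 8 changed sign with a call in at least 1 of the fits. The 8 were the HDAC9 difference of effects with a pseudocount of 0.1 FPKM (-1.04) and with voom on recovered reads (-2.02), HDAC4 under quantile normalization in Raji-4RH (-0.26), in Raji (-0.0032) and for the difference (-0.26), HDAC11 in Raji under quantile normalization (-0.0167), and HDAC11 in the rows as deposited for the difference (-0.47) and between the untreated lines (0.67). The cause was not tested beyond the construction of each alternative: a smaller pseudocount gives low values more weight, and the rows as deposited give HDAC11 other values. Quantile normalization moved the median of all genes in Raji-4RH from 0.09 to -0.02 and the split of calls from 4642 higher and 3380 lower to 3718 and 4057.

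The replicate block left 6 members called in each line and 5 between the untreated lines, and took the calls for the difference of effects from 5 to 4, since HDAC4 was lost (adjusted p = 0.0597). It changed no other call of a member. As the labels share only a replicate number, a crossed pairing of the untreated libraries, chosen after seeing the data, was also run and gave 6 members called. With 2 libraries per group, the intervals given set the precision, and HDAC9 and HDAC11 rested on 22 to 39 reads in their lowest groups.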
